A study of Mus musculus with 20 samples.

Results

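The endoplasmic reticulum (ER) is the compartment in which secreted and membrane proteins fold. The 9 genes described here are the ER folding enzymes Pdia4, Pdia3 and Pdia6, the ER chaperones Hspa5, Hsp90b1 and Calr, and the transcription factors Xbp1, Ddit3 and Atf4. They were chosen by name as the core of the unfolded protein response and its folding machinery, with earlier results of these data known. Shares of the 9 set beside those of all genes are therefore descriptive. Only probe sets annotated with exactly 1 gene symbol were used. The members are 9 of 18193 genes so covered and hold 23 of 34945 such probe sets. All 9 were bright enough to be among the 11076 genes tested, each through its brightest probe set.

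When unfolded proteins build up in the ER, the chaperone BiP, encoded by Hspa5, leaves the sensors IRE1, PERK and ATF6. IRE1 splices Xbp1 messenger RNA, PERK slows translation but lets Atf4 through, and ATF6 is cut to release a transcription factor. The factors made by these branches raise chaperones and folding enzymes, and with lasting stress Ddit3, which encodes CHOP, promotes cell death. In the vessel wall the response has been studied in smooth muscle cells, which secrete matrix, and in endothelial cells. The arrays measured transcript levels. Splicing of Xbp1 and translation of Atf4 were not measured.

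The study profiled mouse aorta in which PPARγ, a nuclear receptor best known from fat cells, had been switched on or blocked. Rosiglitazone, a drug that binds and activates PPARγ, was mixed into the food of adult C57BL/6J mice to give 3 mg/kg/day or 10 mg/kg/day, over either 2 or 14 days, and their controls ate chow alone. In the other experiment, adult mice with the P465L change of PPARγ knocked into its own locus, a form described as dominant negative, were set against wild-type littermates on standard chow. For the littermates no strain was stated in the sources used here. The mutation is not restricted to a cell type. There were 3 arrays each for rosiglitazone at 3 mg/kg/day for 2 days and for 14 days and at 10 mg/kg/day for 2 days, 2 for 10 mg/kg/day for 14 days, 3 for chow, 3 for P465L and 3 for wild type. RNA from 8 aortas was pooled for every array, so the p-values measure differences among pools, and the number of arrays limits their precision.

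The 20 arrays shared a 2% trimmed mean of 1500 signal units, their medians ranged from 321.3 to 450.7, and replicates correlated across genes at an r of 0.964 to 0.988. Genes are not independent replicates. All levels below are log2 of the signal plus 72, a scale on which differences of dim genes are understated. The defining markers of smooth muscle (6 of 6), endothelium (7 of 7) and fibroblasts (6 of 6) lay above the level filter. Markers of fat around the vessel were also high: the 5 brown fat markers averaged 12.03 to 14.67 across arrays. In bulk tissue, fewer cells of a type and less RNA per cell cannot be told apart.

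Promoter sequence is shown first, because 4 of the 9 promoters share the letters of one known element. The ER stress response element (ERSE), the letters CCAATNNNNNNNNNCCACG on either strand, is known from mammalian chaperone promoters as a site for NF-Y together with ATF6 or XBP1. In RefSeq promoters of GRCm38.p6, from 250 bases before to 50 bases after the start of each gene, 39 of 32851 hold it (0.119%), and so do 4 of the 9 genes: Hspa5, Calr, Hsp90b1 with 2 copies, and Pdia6. Because the element was already known from chaperone promoters, its share among these genes is no independent result. The windows below run 5′ to 3′ along the gene, with the element in capitals. They lie at chr2:34772005-34772063 (plus strand) for Hspa5, chr8:84847055-84847113 (minus strand) for Calr, chr10:86705513-86705676 (minus strand) for Hsp90b1 and chr12:17266471-17266529 (plus strand) for Pdia6.
Hspa5: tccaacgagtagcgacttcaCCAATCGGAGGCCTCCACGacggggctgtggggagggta
Calr: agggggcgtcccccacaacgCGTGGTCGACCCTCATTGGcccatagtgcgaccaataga
Hsp90b1: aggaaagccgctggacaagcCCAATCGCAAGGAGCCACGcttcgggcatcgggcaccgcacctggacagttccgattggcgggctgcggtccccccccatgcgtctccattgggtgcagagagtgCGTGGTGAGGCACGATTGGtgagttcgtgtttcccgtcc
Pdia6: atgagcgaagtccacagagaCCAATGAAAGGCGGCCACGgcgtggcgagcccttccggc

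Near matches were searched after the exact ones had been seen. The promoters of Pdia4, Pdia3 and Ddit3 hold the letters with 1 mismatch in the fixed positions. A match with at most 1 mismatch occurs in 494 of all promoters (1.5%) and in 7 of the 9. The closest letters in the Atf4 promoter have 2 mismatches, and a match with at most 2 occurs in 5872 of all promoters (17.9%). Those in the Xbp1 promoter have 3 mismatches. Pdia4 and Pdia3, the genes whose rosiglitazone arrays all lay below chow, are shown with the near match in capitals. The windows lie at chr6:47813582-47813640 (minus strand) for Pdia4 and chr2:121413853-121413901 (plus strand) for Pdia3.
Pdia4: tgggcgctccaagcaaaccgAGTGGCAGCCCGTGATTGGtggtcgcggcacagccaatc
Pdia3: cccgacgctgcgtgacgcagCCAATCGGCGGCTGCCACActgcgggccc

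Other elements were searched on both strands and none of the 9 promoters held them. These were ERSE-II (ATTGGNCCACG), in 12 promoters of the table (0.0365%), the UPRE (TGACGTGG), in 222 (0.676%), and the C/EBP-ATF response element through which ATF4 and CHOP act (TGATGNAA), in 1304 (3.97%). A match describes the letters only, and no match says only that these letters are not in this window.

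The first comparison asked how these genes stood in rosiglitazone aortas, averaged over the 4 dose and time groups, against chow. Pdia4 fell to 0.63 of its chow level. Its relative Pdia3 and the stress factor Atf4 differed by less and did not pass the test. Through their brightest probe sets, the chaperones Hspa5, Hsp90b1 and Calr stayed within 0.08 of chow on the log2 scale. limma called 1 of the 9 genes at an adjusted p under 0.05, against 0.433% of all genes tested (48 of 11076). At an unadjusted p under 0.05 there were 3 of the 9, and 1569 of all genes where 554 would be expected by chance. All 4 rosiglitazone groups were set against the same 3 chow arrays, so their differences are not independent of each other.

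Pdia4 encodes a protein disulfide isomerase also called ERp72, which forms and rearranges disulfide bonds in the ER (chromosome 6, 47796141 to 47813512 in GRCm38, probe set 1416497_at). Its log2 level was 10.10, 10.07 and 9.95 at 3 mg/kg/day for 2 days, 10.26, 9.98 and 9.93 at 3 mg/kg/day for 14 days, 9.78, 9.66 and 9.67 at 10 mg/kg/day for 2 days, and 9.50 and 9.93 at 10 mg/kg/day for 14 days, against 10.56, 10.64 and 10.43 in chow. Every one of the 11 rosiglitazone arrays lay below every chow array. The averaged difference was -0.66 (SE 0.14, 95% interval -0.95 to -0.37, adjusted p = 0.0304, limma). The call was lost when any 1 of the 3 chow arrays was left out (adjusted p = 0.153 without A, 0.174 without B and 0.158 without C), with values of -0.72 to -0.61. It was also lost with no filter on low levels (-0.66, adjusted p = 0.0745), with the 2 probe sets of the gene averaged (-0.35, adjusted p = 0.497), and without 3 mg/kg/day for 14 days B (0.0515), 10 mg/kg/day for 2 days B (0.0522), 10 mg/kg/day for 2 days C (0.0508) or 10 mg/kg/day for 14 days A (0.0668). Calls over all genes also fell: limma called 3, 11 and 1 without chow A, B and C, against 48 with all arrays.

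Pdia3 encodes ERp57, the disulfide isomerase that works with calreticulin and calnexin on glycoproteins (chromosome 2, 121413902 to 121438687). Its log2 level was 14.43, 14.38 and 14.50 at 3 mg/kg/day for 2 days, 14.51, 14.34 and 14.43 at 3 mg/kg/day for 14 days, 14.51, 14.16 and 14.19 at 10 mg/kg/day for 2 days, and 14.17 and 14.32 at 10 mg/kg/day for 14 days, against 14.68, 14.52 and 14.77 in chow. Here too all 11 rosiglitazone arrays lay below all chow arrays, with the nearest pair at 14.51 and 14.52. The difference was -0.31 (SE 0.08, 95% interval -0.47 to -0.14, adjusted p = 0.0971) and did not pass. Arrays of the 2 conditions did not overlap for 2 of the 9 genes, Pdia4 and Pdia3, against 2.07% of all genes tested. The third isomerase, Pdia6, a partner of BiP (chromosome 12, 17266589 to 17284785), ranged from 12.86 to 13.33 over the rosiglitazone arrays, against 12.95 to 13.38 in chow. Its difference of -0.06 had an interval of -0.29 to 0.16 (adjusted p = 0.854).

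Atf4, the transcription factor that PERK signalling brings through translation, was the member with the largest positive difference (chromosome 15, 80255184 to 80257545). Its log2 level was 13.84, 13.60 and 13.86 at 3 mg/kg/day for 2 days, 13.84, 13.54 and 13.41 at 3 mg/kg/day for 14 days, 13.79, 13.70 and 13.75 at 10 mg/kg/day for 2 days, and 13.77 and 13.78 at 10 mg/kg/day for 14 days, against 13.30, 13.44 and 13.41 in chow. Of the 11 rosiglitazone arrays, 10 lay above every chow array, and 1 of the 3 mg/kg/day arrays at 14 days lay among them. The difference was 0.34 (SE 0.08, 95% interval 0.17 to 0.51, adjusted p = 0.0728) and did not pass.

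Ddit3, which encodes the cell death factor CHOP (chromosome 10, 127290793 to 127296291), had rosiglitazone levels of 11.51 to 12.44, against 11.84 to 12.02 in chow. Its averaged difference was 0.10 (95% interval -0.15 to 0.36, adjusted p = 0.766). The widest spread lay within a single group: 12.39, 11.95 and 11.51 at 3 mg/kg/day for 2 days. Xbp1, the factor spliced by IRE1 (chromosome 11, 5520641 to 5525993), ranged from 14.48 to 14.86 with rosiglitazone, against 14.32 to 14.95 in chow, so every rosiglitazone array lay inside the chow range. Its difference was 0.07 (95% interval -0.14 to 0.28, adjusted p = 0.806).

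Hspa5 encodes BiP, the ER member of the Hsp70 family and the usual marker of an active response (chromosome 2, 34772090 to 34776529). It ranged from 14.94 to 15.35 over the rosiglitazone arrays, against 15.03 to 15.15 in chow, with a difference of 0.08 (95% interval -0.14 to 0.30, adjusted p = 0.792). Hsp90b1 encodes GRP94, the ER member of the Hsp90 family (chromosome 10, 86690841 to 86705444). It ranged from 14.41 to 14.99 with rosiglitazone and from 14.44 to 14.85 in chow, with a difference of -0.01 (95% interval -0.25 to 0.23, adjusted p = 0.985). Calr encodes calreticulin, a calcium-binding lectin chaperone (chromosome 8, 84842088 to 84846931). It ranged from 14.94 to 15.43 with rosiglitazone and from 14.99 to 15.32 in chow, with a difference of 0.02 (95% interval -0.15 to 0.19, adjusted p = 0.946). Through these brightest probe sets, the intervals of all 3 exclude a fall as large as the -0.66 estimated for Pdia4. The Pdia4 interval itself reached up to -0.37, and the genes were not tested against each other. A second probe set of Hsp90b1 (1438040_a_at) gave -0.36 (95% interval -0.61 to -0.11, adjusted p = 0.166, limma). All 3 carry an exact ERSE in the windows above, and the part of the element in these levels was not tested.

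**Figure D1:**
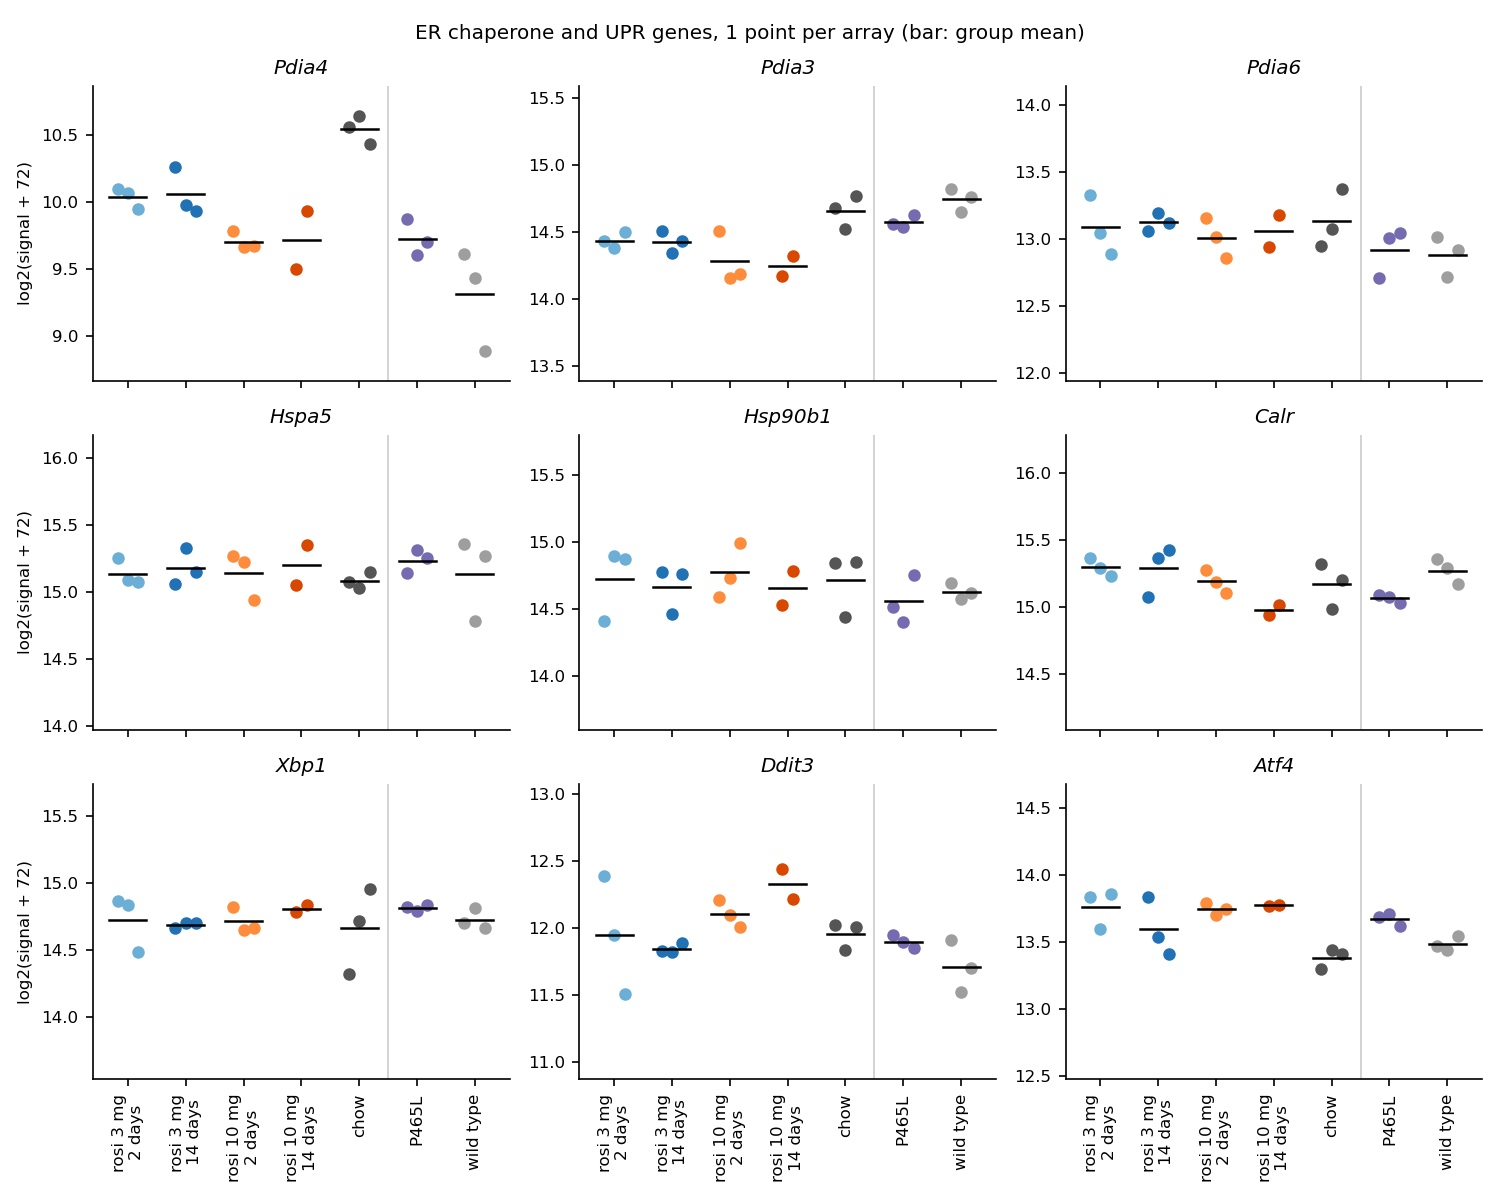
Log2(signal + 72) of the brightest probe set of each of the 9 genes on the vertical axis (the same span in every panel), with 1 point per array and a bar at the group mean, for the 4 rosiglitazone groups, chow, P465L and wild type from left to right. Pdia4 shows the 3 chow arrays at 10.43 to 10.64, above all other arrays, and wild type at 8.89 to 9.61.

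Taken group by group, the fall of Pdia4 was called at 10 mg/kg/day for 2 days. Its difference there was -0.84 (SE 0.17, adjusted p = 0.0325), and it was the 1 gene of the 9 called, against 0.506% of all genes. That call was lost without any 1 chow array or any 1 of its own 3 arrays (adjusted p between 0.0665 and 0.145), with no filter (-0.84, 0.0723) and with the 2 probe sets averaged (-0.47, 0.439). Over all genes, limma called 3, 18 and 7 without chow A, B and C, against 56 with all arrays. Without the group's own A, B and C it called 14, 0 and 11. At 10 mg/kg/day for 14 days the difference was -0.83 (SE 0.19, adjusted p = 0.088), with 0 of the 9 called and 0.271% of all genes called. At 3 mg/kg/day it was -0.50 after 2 days (adjusted p = 0.432) and -0.49 after 14 days (adjusted p = 0.495), where limma called 0 of the 9 and 0% of all genes at either time. Unadjusted p-values under 0.05 numbered 977 and 916 of all genes at these times, where 554 would be expected by chance.

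Pdia3 differed from chow by -0.22 at 3 mg/kg/day for 2 days (adjusted p = 0.533), -0.23 at 3 mg/kg/day for 14 days (0.553), -0.37 at 10 mg/kg/day for 2 days (0.095) and -0.41 at 10 mg/kg/day for 14 days (0.127). The corresponding differences of Atf4 were 0.39 (0.302), 0.22 (0.597), 0.36 (0.0988) and 0.39 (0.15). None of these passed the test.

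Dose and time were then compared between the rosiglitazone groups, so no chow array enters the differences themselves. Their intervals and p-values came from the fit to all arrays, with the spread of the chow, wild-type and P465L arrays included. For 10 against 3 mg/kg/day, Pdia4 differed by -0.34 (95% interval -0.61 to -0.07, adjusted p = 0.328), with levels of 9.50 to 9.93 at 10 mg/kg/day and 9.93 to 10.26 at 3 mg/kg/day. Pdia3 differed by -0.16 (adjusted p = 0.38), Calr by -0.21 (0.3), Ddit3 by 0.32 (0.293) and Atf4 by 0.08 (0.695). limma called 0 of the 9 and 0% of all genes for dose, with 1405 of all genes at an unadjusted p under 0.05. For 14 against 2 days, Pdia4 differed by 0.01 (95% interval -0.26 to 0.28), Pdia3 by -0.03 (-0.18 to 0.13) and Atf4 by -0.07 (-0.23 to 0.09), each with an adjusted p of 0.999. For time limma again called 0 of the 9 and 0% of all genes, and 464 genes had an unadjusted p under 0.05.

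**Figure D2:**
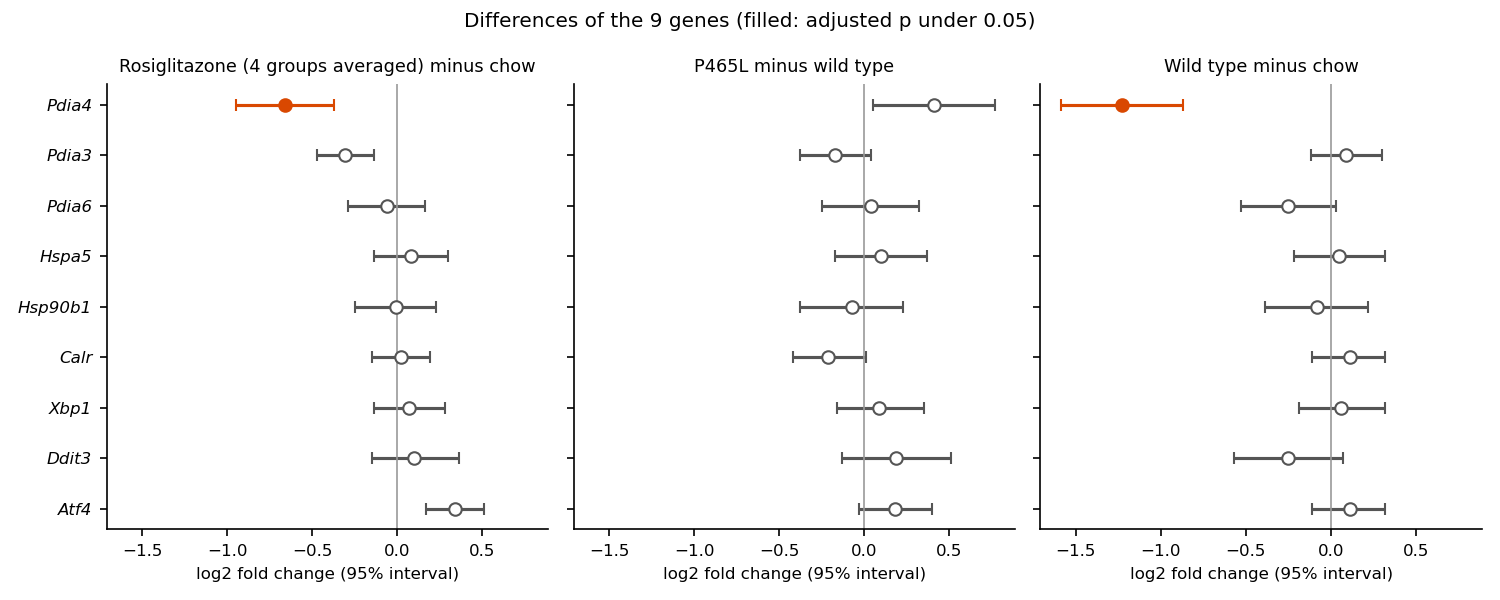
Log2 fold changes of the 9 genes on the horizontal axis with their 95% intervals, for rosiglitazone minus chow, P465L minus wild type and wild type minus chow from left to right. Filled points passed an adjusted p under 0.05: Pdia4 at -0.66 for rosiglitazone and at -1.23 for wild type minus chow.

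Interference with PPARγ by the P465L change was compared with wild-type littermates. limma called 0 of the 9 genes, against 0.0181% of all genes tested, with 821 of all genes at an unadjusted p under 0.05. Pdia4 had log2 levels of 9.87, 9.60 and 9.70 in P465L aortas, against 9.61, 9.43 and 8.89 in wild type. The groups overlapped, and the difference of 0.41 did not pass (95% interval 0.05 to 0.77, adjusted p = 0.647). It was 0.20 without the lowest wild-type array, replicate C.

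Arrays of the 2 genotypes did not overlap for 3 of the 9 genes, where 14.3% of all genes tested did not overlap. Atf4 was at 13.69, 13.71 and 13.62 in P465L and at 13.47, 13.44 and 13.55 in wild type, a difference of 0.18 (adjusted p = 0.677). Calr was at 15.09, 15.08 and 15.03 in P465L and at 15.36, 15.29 and 15.17 in wild type, a difference of -0.21 (adjusted p = 0.673). Pdia3 was at 14.56, 14.54 and 14.63 in P465L and at 14.82, 14.65 and 14.76 in wild type, a difference of -0.17 (adjusted p = 0.693). None of the 3 passed the test. Among the members with overlapping arrays, the differences were 0.19 for Ddit3 (adjusted p = 0.774), 0.10 for Hspa5 (0.865), 0.09 for Xbp1 (0.865), 0.04 for Pdia6 (0.961) and -0.07 for Hsp90b1 (0.916).

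The untreated groups of the 2 experiments, wild-type littermates and chow mice, were also set side by side. Pdia4 was at 9.61, 9.43 and 8.89 in wild type, against 10.56, 10.64 and 10.43 in chow, a difference of -1.23 (SE 0.17, adjusted p = 0.000234), so it fell to 0.43 of the chow level. With its 2 probe sets averaged the difference was -0.69 and the call was lost (adjusted p = 0.137). Through the brightest probe set it was the 1 gene of the 9 called, against 6.5% of all genes tested (720 of 11076), and the 1 gene of the 9 whose arrays did not overlap, against 27.8% of all genes. The other 8 did not pass: Pdia6 differed by -0.25 (adjusted p = 0.284), Ddit3 by -0.25 (0.363), Hsp90b1 by -0.08 (0.785), Hspa5 by 0.05 (0.862), Xbp1 by 0.06 (0.814), Pdia3 by 0.09 (0.66), Calr by 0.11 (0.59) and Atf4 by 0.11 (0.59). Strain, colony and handling cannot be told apart between these groups.

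Across all 7 groups the order of Pdia4 levels was chow (10.54 ± 0.11), 3 mg/kg/day for 14 days (10.05 ± 0.18), 3 mg/kg/day for 2 days (10.04 ± 0.08), P465L (9.72 ± 0.13), 10 mg/kg/day for 14 days (9.72 ± 0.31), 10 mg/kg/day for 2 days (9.71 ± 0.07) and wild type (9.31 ± 0.37), as means ± SD with n = 3, or 2 for 10 mg/kg/day for 14 days. Neighbours in this order did not overlap at 3 steps: below chow, between 3 mg/kg/day for 2 days and P465L, and above wild type. Only the step below chow parted all groups on its sides. Wild type reached up to 9.61, and 10 mg/kg/day for 14 days began at 9.50. In signal units, 3 mg/kg/day for 14 days began at 902.9, and 10 mg/kg/day for 14 days reached 904.9. Untreated wild-type littermates had a lower mean than every rosiglitazone group, and all chow arrays lay above all other arrays. The order of Pdia3 was different, with wild type (14.74), chow (14.66) and P465L (14.58) above the rosiglitazone groups, at 14.44 to 14.25. For Atf4 chow was lowest (13.38) and wild type next (13.49), and every pair of neighbours overlapped.

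Brown fat markers differed between these groups. The 5 markers (Ucp1, Cidea, Cox8b, Cox7a1 and Elovl3) averaged 14.02 and 13.82 at 3 mg/kg/day for 2 and 14 days and 13.76 and 14.00 at 10 mg/kg/day for 2 and 14 days, against 12.85 in chow. Their array ranges were 13.24 to 14.67 with rosiglitazone and 12.17 to 13.25 in chow. All 5 were higher with rosiglitazone, by 1.05 on average, with 0 called. In wild-type littermates they averaged 14.10, which is 1.25 above chow with 2 of 5 called, and in P465L aortas 12.84, a difference of -1.25 from wild type with 1 called (Elovl3). Over all genes, limma called 0.433% in the rosiglitazone average, 6.5% in wild type against chow and 0.0181% in P465L against wild type. The brown fat markers were higher in every comparison made with chow, and Pdia4 was lower in each. At 3 mg/kg/day for 2 and 14 days the markers averaged 1.17 and 0.97 above chow, and Pdia4 differed by -0.50 and -0.49. At 10 mg/kg/day for 14 days the markers averaged 1.15 above chow, and Pdia4 differed by -0.83. Pdia4 was not called in these groups. All these comparisons share the same chow arrays. Within groups the order varied: chow C was lowest for both the markers (12.17) and Pdia4 (10.43). At 3 mg/kg/day for 14 days, array A had the lowest markers (13.24) and the highest Pdia4 (10.26). In P465L the brown fat markers ranged from 12.03 to 13.78, against 12.17 to 13.25 in chow, and Pdia4 averaged 9.72, against 10.54 in chow. Whether these marker differences reflect more fat tissue or more of these transcripts per cell cannot be told apart here. Their part in the Pdia4 result was not tested.

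**Figure D3:**
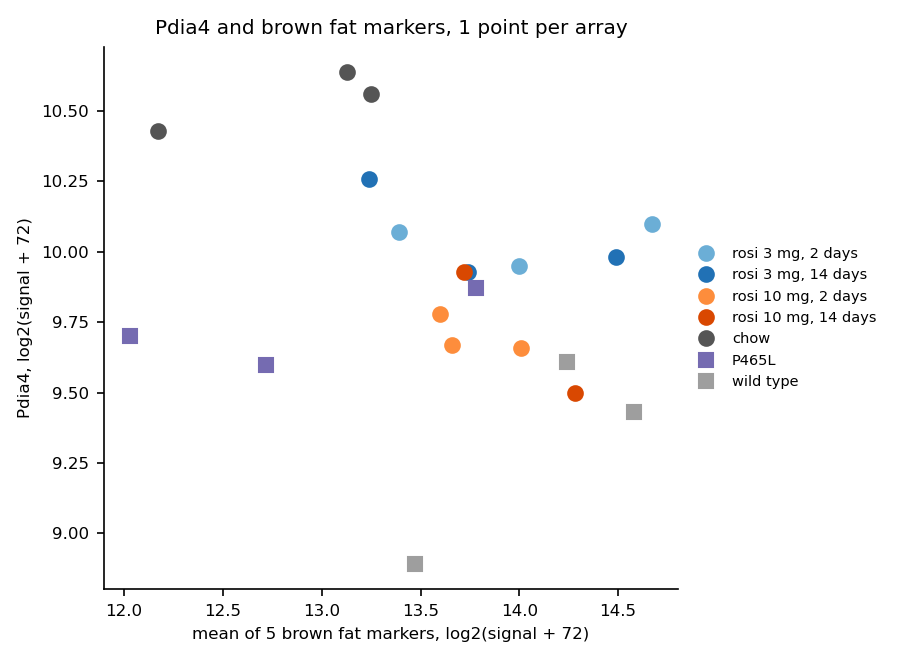
Log2(signal + 72) of Pdia4 against the mean log2(signal + 72) of 5 brown fat markers, 1 point per array, with circles for the rosiglitazone experiment and squares for the P465L experiment. Chow lies at the upper left, the wild-type arrays at 13.47 to 14.58 on the horizontal axis have Pdia4 levels of 8.89 to 9.61, and the 3 P465L arrays at 13.78, 12.72 and 12.03 have Pdia4 levels of 9.87, 9.60 and 9.70.

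Markers of the other cells in the tissue are given beside these results. Fat cell markers averaged 0.59 higher with rosiglitazone than in chow (4 of 8 above the level filter, Fabp4 called at 0.84) and differed by -0.39 on average between P465L and wild type. Endothelial markers averaged -0.06 with rosiglitazone, with Pecam1 called at -0.57. Smooth muscle (-0.03), fibroblast (0.02), macrophage (-0.15) and B cell and plasma cell markers (0.03) were near chow. The 2 liver markers above the filter averaged -1.03 with rosiglitazone, neither higher and 0 called: -1.71 and -1.34 at 3 mg/kg/day for 2 and 14 days, and -0.05 and -1.01 at 10 mg/kg/day for 2 and 14 days. Skeletal muscle markers averaged -0.15, with 0.12 and -0.15 at 3 mg/kg/day and 0.73 and -1.29 at 10 mg/kg/day for the same times, and 0 called. Between P465L and wild type the mean differences were -0.19 for smooth muscle, -0.20 for endothelium, -0.08 for fibroblasts and 0.06 for macrophages. Plasma cells are rich in this folding machinery: the 6 of 8 B cell and plasma cell markers above the filter averaged 0.56 higher in P465L than in wild type, with signals summed over the 7 with a probe set of 3669 to 10628 in P465L and 1970 to 5772 in wild type. Skeletal muscle markers (5 of 6 above the filter) differed by -1.33 on average between P465L and wild type and liver markers (2 of 6 above the filter) by -2.66, each with 0 called. Between wild type and chow the means were 2.23 for skeletal muscle, 1.54 for liver, 0.38 for B cells and plasma cells, 0.52 for fat cells, 0.14 for fibroblasts, 0.07 for smooth muscle, -0.01 for endothelium and -0.04 for macrophages. For Gapdh, 3′ over 5′ signal was 0.83 to 0.93 in P465L, 0.80 to 0.83 in wild type and 0.90 to 0.96 in chow. With rosiglitazone it was 0.84 to 0.98. For Actb it was 1.18 to 1.22 in wild type, 1.19 to 1.21 in chow and 1.18 to 1.35 with rosiglitazone. The Actb range of P465L began at 1.17 and overlapped those of wild type and chow. The wild-type and chow ranges were thus apart for Gapdh and overlapped for Actb. The part of these markers and ratios in the results above was not tested.

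The wider pathway was read from 6 lists, of which 99 of 107 genes were tested. limma called 0 of the 99 in the rosiglitazone average, with 13 at an unadjusted p under 0.05, against the 1569 of all 11076 genes. The median difference of all genes was -0.02, and the lists lay close to it: -0.01 for other ER chaperones and folding enzymes (11 of 24 higher), 0.02 for ER-associated degradation (10 of 16 higher), 0.04 for translocation into the ER (9 of 14) and 0.02 for targets of the PERK, ATF4 and CHOP branch (12 of 22). The medians of the calnexin cycle and glycan processing (-0.15, 1 of 10 higher) and of the stress sensors and regulators (-0.08, 2 of 13 higher) lay lower, with 45% of all genes higher. The single groups also gave 0 of the 99 called, with 8 and 5 at an unadjusted p under 0.05 at 3 mg/kg/day for 2 and 14 days and 17 and 12 at 10 mg/kg/day for 2 and 14 days. Over all 11076 genes the counts in these groups were 977, 916, 1687 and 1391. Dose and time gave 0 called, with 16 and 2 at an unadjusted p under 0.05, against 1405 and 464 of all genes.

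In P465L against wild type, with a median of 0.01 over all genes, the list medians were -0.02 for chaperones and folding enzymes, -0.03 for the calnexin cycle, 0.07 for ER-associated degradation, 0.05 for translocation, -0.03 for sensors and -0.01 for PERK branch targets. None of the 99 was called (limma), and 7 had an unadjusted p under 0.05, against 821 of the 11076 genes tested.

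Between wild type and chow 1 of the 99 was called, against 6.5% of all genes tested. At an unadjusted p under 0.05 there were 17 of the 99, against 2493 of the 11076. Asns, the asparagine synthetase that ATF4 induces when amino acids run short, was at 11.79, 11.97 and 11.44 in wild type, against 10.66, 10.45 and 9.87 in chow. All wild-type arrays were higher, by 1.41 on average (SE 0.32, adjusted p = 0.0121). The call was lost without chow C (1.18, adjusted p = 0.0696) or wild-type B (1.29, 0.0646). Without these arrays limma called 322 and 279 of all genes, against 720 with all arrays. The list medians in that comparison were -0.05, -0.03, -0.06, 0.03, -0.14 and -0.09 for chaperones, calnexin cycle, degradation, translocation, sensors and PERK branch targets, with -0.04 over all genes.

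**Figure D4:**
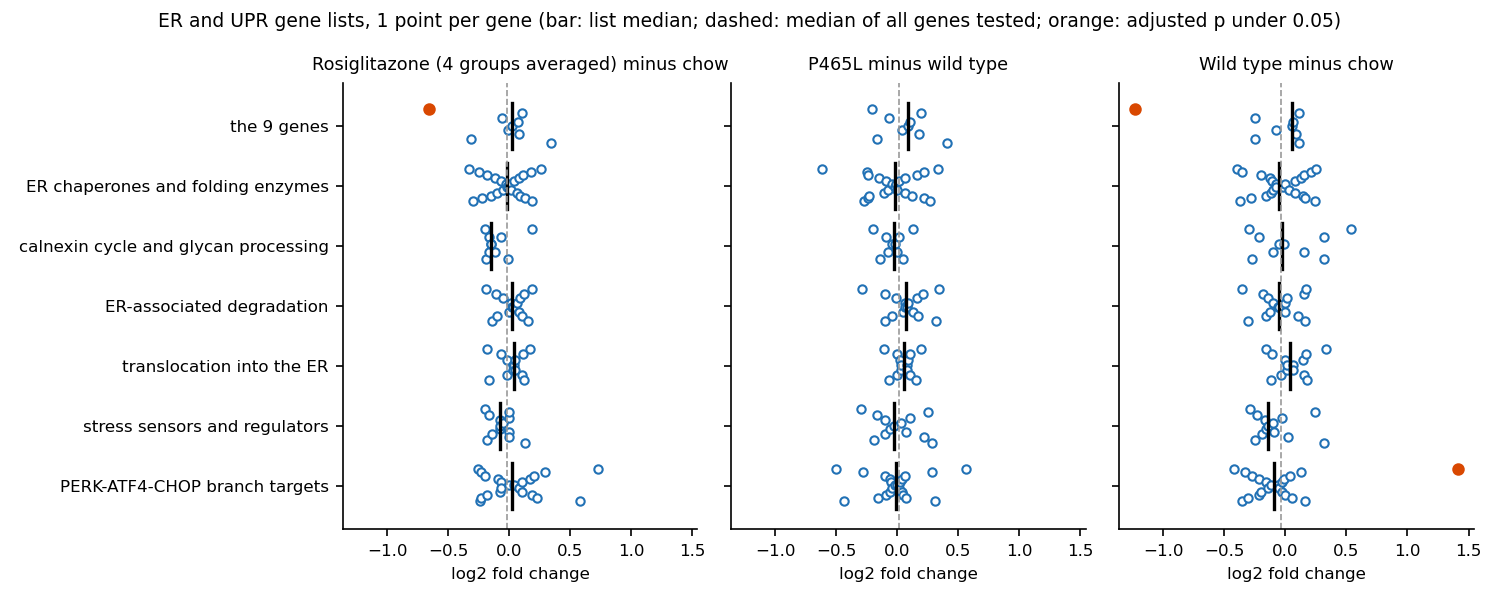
Log2 fold changes on the horizontal axis, 1 point per gene, for the 9 genes and the 6 pathway lists (rows), in rosiglitazone minus chow, P465L minus wild type and wild type minus chow. Bars mark list medians, the dashed line marks the median of all genes tested, and the orange points are Pdia4 (-0.66 and -1.23) and Asns (1.41).

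The promoter elements were also set beside the pathway genes. Of the 84 with a promoter in the table, Canx, Creld2, Derl3, Dnajc3, Ero1b and Syvn1 hold an exact ERSE. Their rosiglitazone differences ran from -0.15 to 0.19 with a median of 0.03 and 0 of 6 called. The C/EBP-ATF element stood in 12 of the 84 (Aars, Asns, Atf3, Chac1, Cnpy2, Gars, Herpud1, Nupr1, Slc7a11, Trib3, Txndc5 and Vldlr). Of these, 11 were tested, with differences of -0.33 to 0.73, a median of 0.09, 9 of 11 higher and 0 called. Over all genes tested, 45% were higher and 0.433% called. Most of the 12 are on the list chosen as targets of the PERK, ATF4 and CHOP branch. The element among them is therefore no independent result.

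The 9 genes had 14 further probe sets. That of Pdia4 (1450620_at) had a mean log2 level of 7.58, below the filter at 8.73, and a rosiglitazone difference of -0.04 with an interval of -0.89 to 0.81, which holds both 0 and the -0.66 of the brighter one. The second probe set of Pdia3 (1445330_at) differed by -0.09 with rosiglitazone (adjusted p = 0.851), and by -0.69 between wild type and chow (adjusted p = 0.0331), where the brightest differed by 0.09. The second of Atf4 (1438992_x_at) differed by 0.61 (adjusted p = 0.132), the same way as the brightest, and by -0.50 between wild type and chow (0.186). For Hsp90b1 (1438040_a_at) the difference was -0.36 (0.166), where the brightest gave -0.01. The other probe sets of Hspa5 differed by 0.12 and 0.21, both of Calr by -0.09, and those of Xbp1 by -0.09, 0.02 and 0.21, with adjusted p-values of 0.488 or more. The dim probe sets of Ddit3, Atf4 and Pdia6 differed by -0.54, 0.19 and 0.04. Between wild type and chow, the 2 of Hspa5 differed in opposite directions (0.31 and -0.60, adjusted p = 0.0867 and 0.117), so the value of a gene there depended on the probe set read.

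Over the 20 arrays, the levels most like Pdia4 were those of Dcakd, a protein with a coenzyme A kinase domain (Pearson's r = 0.85), Vasp, an actin regulator (0.84), and Pik3r2, a regulatory subunit of PI 3-kinase (0.82). Against the other members, r of Pdia4 ran from -0.22 (Atf4) to 0.44 (Pdia6). The levels most like Hspa5 were those of Asxl1, a chromatin regulator (0.73), Pes1, a ribosome assembly factor (0.73), and Tcp1, a subunit of the cytosolic chaperonin (0.68), while r to the members ran from -0.24 (Hsp90b1) to 0.53 (Pdia6). These correlations describe 20 arrays in 7 groups whose tissue markers differed, and carry no test.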

How the data were processed

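Messenger RNA of mouse aorta was hybridized to Affymetrix GeneChip Mouse Genome arrays. The deposited intensity values are linear signals per probe set, made by the authors with MAS5, per the submitters' processing notes. Its version is not given in the sources used here. Each array had been scaled to a 2% trimmed mean of 1500, as the values show.

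Of 45101 probe sets, 64 were controls, 34945 had 1 symbol in the platform annotation, 932 had several and 9160 had none. Entrez IDs matched RefSeq for 34741, and 0 symbols were updated. Signals were analysed as log2(signal + 72), where 72 is the 20th percentile of all values. Each gene took its brightest probe set, and genes whose mean reached the 50th percentile of all probe sets (log2 8.73) were tested.

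limma 3.58.1 in R 4.3.3 fitted 1 mean per group to all 20 arrays (13 residual and 7.3 prior degrees of freedom, variance trend, two-sided, Benjamini-Hochberg over 11076 genes, called at an adjusted p under 0.05). The fit was tested on simulated data. Alternatives were other offsets (16 and 200), no filter, quantile normalization, the mean of probe sets, no variance trend, array weights, 1 experiment alone, a replicate block and each array left out. No 2 arrays held identical values.

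Members, pathway lists and marker lists were chosen with earlier results of these data known. All members were named. A pathway gene was named with values when called, and the 3 genes most correlated with Pdia4 and with Hspa5 were named. The search for near matches to the ERSE was added after the exact matches were seen. Some genes of the pathway and marker lists are not reported here. Python 3.11.15, pandas 2.3.3, numpy 2.4.6, scipy 1.17.1 and matplotlib 3.10.9 were used.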

Additional observations from a re-analysis of the deposited data

Results flagged for a closer look

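For Calr and Ddit3, every array of some rosiglitazone groups lay on one side of the chow mean and every array of another group on the opposite side. Calr was 0.13 above chow at 3 mg/kg/day for 2 days, with all arrays above the chow mean, and -0.19 from chow at 10 mg/kg/day for 14 days, with both arrays below it. Ddit3 was 0.15 above chow at 10 mg/kg/day for 2 days and 0.37 above at 10 mg/kg/day for 14 days, with all arrays above the chow mean, and -0.11 from chow at 3 mg/kg/day for 14 days, with all arrays below it. These pairs of groups were not tested against each other. The nearest test is that of dose over both times, which gave -0.21 for Calr (adjusted p = 0.3) and 0.32 for Ddit3 (adjusted p = 0.293). None of these values passed an adjusted p under 0.05.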

How the results depend on the processing

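Of 1426 recomputed gene differences, 1334 kept their direction and side of the threshold, 20 lost the call, 14 gained it and 58 turned sign. Through its brightest probe set or the mean of both, Pdia4 kept its sign in every alternative setting of the comparisons that called it. The differences were -0.72 to -0.35 for the average (called in 20 of 29), -0.89 to -0.47 at 10 mg/kg/day for 2 days (21 of 29) and -1.38 to -0.69 for wild type minus chow (27 of 28). Its dim probe set alone gave 0.17 at 10 mg/kg/day for 14 days. The values that follow are for the rosiglitazone average. With the 2 probe sets of Pdia4 averaged it was -0.35 (adjusted p = 0.497), and with no filter -0.66 (0.0745). With the replicate block it was -0.68 (adjusted p = 0.0239), 1 of 9 was called in the average as without it, and the block changed no other call. The letters are not stated to pair the arrays. Deviations from the group means correlated at a median r of 0.026 over 57 same-letter pairs (-0.301 to 0.358), which does not settle whether some arrays were paired. The median of all genes moved by less than 0.1 under quantile normalization.

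Counts of the 9 genes called moved as follows. In the rosiglitazone average (1) the count was 0 with no filter and with the mean of probe sets, 3 with quantile normalization and with array weights (Pdia4, Pdia3 and Atf4), and 0 to 2 with single arrays left out. At 10 mg/kg/day for 2 days (1) it was 0 with no filter and with the mean of probe sets, 3 with array weights, and 0 to 1 with arrays left out. At 10 mg/kg/day for 14 days (0) it was 1 with the mean of probe sets (Atf4), 3 with array weights, and 0 to 1 with arrays left out. In wild type against chow (1) it was 0 with the mean of probe sets. Of the 99 pathway genes, array weights called 7 at 10 mg/kg/day for 2 days, 3 at 10 mg/kg/day for 14 days and 6 in wild type against chow. At 10 mg/kg/day for 14 days quantile normalization and the mean of probe sets each called 1 (Txndc5), against 43 and 29 of all genes. Arrays left out gave 0 to 1 of the 99. In wild type against chow quantile normalization and no variance trend each called 2, against 768 and 630 of all genes. There, arrays left out gave 0 to 2 of the 99. The cause of these shifts was not tested.

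Signs turned as follows. With the mean of probe sets, the rosiglitazone average gave -0.05 for Calr and -0.22 for Ddit3, dose gave -0.03 for Ddit3, time 0.15 for Atf4, P465L minus wild type -0.10 for Pdia4, 0.07 for Pdia3 and -0.13 for Pdia6, and wild type minus chow -0.30 for Pdia3, 0.05 for Pdia6, -0.08 for Hspa5, 0.17 for Hsp90b1, -0.01 for Xbp1 and -0.16 for Atf4. With quantile normalization, the average gave -0.05 for Calr, time -0.00 for Pdia4 and 0.00 for Pdia3, and wild type minus chow -0.03 for Hspa5. With array weights the average gave 0.09 for Hsp90b1 and time 0.01 for Pdia3. With the replicate block the average gave 0.01 for Hsp90b1 and time -0.02 for Pdia4. Through other probe sets above the level filter, and for differences given above, the average gave -0.09 for Calr (both) and -0.09 for Xbp1. Pdia3 gave 0.04 at 10 mg/kg/day for 2 days, 0.10 for dose, 0.01 for time, 0.30 for P465L minus wild type and -0.69 for wild type minus chow. Time gave 0.18 for Atf4. Other probe sets gave -0.05 for Hspa5 in P465L minus wild type. In wild type minus chow they gave -0.60 for Hspa5, 0.43 for Hsp90b1, -0.08 and -0.07 for Xbp1, and -0.50 for Atf4. Dim probe sets below the filter also turned sign. Among these, that of Pdia4 gave 0.14 for dose and -0.62 for P465L minus wild type. That of Ddit3 gave -0.54 for the average, and that of Pdia6 gave 0.34 for wild type minus chow.

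With single arrays left out, the average ran from -0.07 to 0.10 for Calr, -0.14 to 0.06 for Hsp90b1, -0.16 to 0.06 for Pdia6 and -0.10 to 0.21 for Xbp1. Time ran from -0.06 to 0.03 for Pdia3 and -0.10 to 0.12 for Pdia4. P465L minus wild type ran from -0.17 to 0.00 for Hsp90b1, -0.08 to 0.21 for Hspa5 and -0.05 to 0.14 for Pdia6, and wild type minus chow from -0.06 to 0.23 for Hspa5 and -0.11 to 0.21 for Xbp1. Dim probe sets and groups of 2 or 3 arrays limit what could be detected.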
